A study of Arabidopsis thaliana with 12 samples.

Results

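RNA-seq libraries of Arabidopsis thaliana plants of the genotypes flu/ex1/ydl1 and flu/ex1 were compared at the end of a dark period, before any light was given. The comparison rested on 4 of the 12 libraries of the series, 2 per genotype, chosen by the time code in the name of each library's count table (4 h of darkness and 0 min of light). By their names, the flu/ex1/ydl1 plants carried the mutations flu, ex1 and ydl1, and the flu/ex1 plants carried flu and ex1. Thus flu and ex1 were shared by both groups and ydl1 was the named difference. Whether the groups differed elsewhere in the genome is not given by the labels. All plants were 6 d old, had grown on soil in continuous light and had then been kept dark for 4 h. The other 8 libraries came from the same genotypes after 30 or 60 min of light following the dark period. The labels give neither the alleles nor whether replicates were separate sets of plants, so p-values measure only the spread between these libraries, which may be technical. Whole plants were extracted, and in such samples fewer cells of a type and less RNA per cell cannot be told apart.

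FLU is a plastid protein that holds back chlorophyll synthesis in darkness. Without it the precursor protochlorophyllide accumulates in the dark, and the pigment transfers light energy to oxygen and forms singlet oxygen when the plants are lit again. EXECUTER1, encoded by EX1, is a plastid protein that relays the presence of singlet oxygen to the nucleus, where genes respond. In the dark the pigment is present but not excited, and the comparison there asked how the genotypes differed before singlet oxygen was released.

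The labels and the table names gave different light times for 8 of the 12 libraries, with no difference in genotype. Titles and table names held the same 12 codes of genotype, time and replicate, and within each of the 2 genotypes the table names ran alphabetically in the order of the samples. Of the 4 libraries used here, 2 were labelled as dark and 2 (flu/ex1/ydl1 replicate 3 and flu/ex1 replicate 3) as 30 min of light. Genes known to answer to light were therefore read in every library. ELIP1, an early light-induced protein of the thylakoid, had 10.8 and 10.6 CPM (each gene's count relative to the scaled library total) in the dark flu/ex1/ydl1 libraries, against 15.9 and 20.7 CPM in the dark flu/ex1 libraries. It had 31.1 to 150 CPM in the 8 libraries whose table names gave 30 or 60 min, so that the 4 dark libraries lay below all others. SIGE, a plastid sigma factor, had 1.08 to 3.79 CPM in the 4 dark libraries and 16.7 to 24.7 CPM in the other 8. ELIP2 and HY5 also did not overlap between these sets. SIGE, ELIP2 and HY5 were picked after their values were seen, and the share of all genes that separated these sets was not counted. Other light-induced genes did overlap: HYH had 8.53 to 15.7 CPM in the 4 dark libraries and 14.8 to 30 CPM in the other 8. TT4, TT5, RUP1 and FLS1 overlapped as well. Grouped by the labels instead, ELIP1 ranged from 10.8 to 88.4 CPM in the 4 libraries labelled dark and from 10.6 to 150 CPM in the other 8. All values below use the times of the table names, and the comparison by labelled times is given beside the main result.

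**Figure D1:**
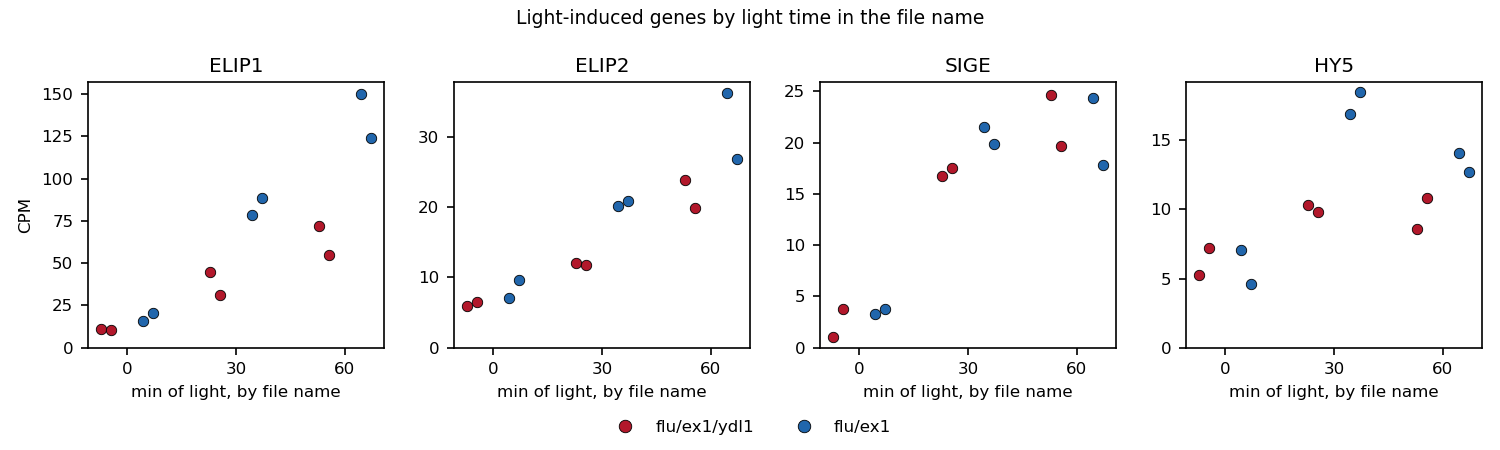
Levels of 4 light-induced genes (y axis, CPM) by minutes of light in the table name (x axis). Each point is 1 library, with flu/ex1/ydl1 in red on the left and flu/ex1 in blue on the right of each time. For SIGE the 4 libraries at 0 min sit between 1.08 and 3.79 CPM and the other 8 between 16.7 and 24.7 CPM.

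The count tables held 7859611 to 11591060 counts per library over 36917 loci. The dark libraries had 8932553 and 7962868 counts in flu/ex1/ydl1, against 7859611 and 9170506 counts in flu/ex1. Plastid loci took 69.4% and 63.5% of the counts in dark flu/ex1/ydl1 libraries and 67.7% and 68.9% in dark flu/ex1 libraries, which left 2512175 to 2883090 nuclear counts per dark library. Nuclear ribosomal RNA loci took 0.828% of the counts in flu/ex1 dark replicate 2 and at most 0.0458% in any other library, so this library stood apart. FLU had 44.6 and 59.8 CPM in dark flu/ex1/ydl1 libraries, against 53.3 and 45.2 CPM in dark flu/ex1 libraries. EX1 had 2.3 and 2.09 CPM in dark flu/ex1/ydl1 libraries, against 2.91 and 5.22 CPM in dark flu/ex1 libraries. EX2, its homologue, had 7.72 and 9.94 CPM in flu/ex1/ydl1, against 10.9 and 7.98 CPM in flu/ex1. None of the 3 passed the test. Since no locus is named YDL1 in the reference, the level of that gene was not checked. Root markers summed to 6.64 and 10.6 CPM in dark flu/ex1/ydl1 libraries, against 9.27 and 10.9 CPM in dark flu/ex1 libraries, and 4 of their 7 genes had too few counts to be tested. None of 9 seed storage genes could be tested, and they summed to 0.542 and 0.916 CPM in flu/ex1/ydl1, against 1.80 and 1.08 CPM in flu/ex1.

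The 2 genes that passed the test in the dark were AT3G63052 and MRD1, both protein-coding loci with short reading frames. Their coding sequences from RefSeq (build TAIR10.1) are shown because they carry the whole called difference and because each has a near copy elsewhere in the genome, with the start codon and, where it is reached, the stop codon in capitals. AT3G63052 (chr3:23298911-23299111, minus strand) has a single coding exon of 201 bases with 66 codons before the stop, and the MRD1 reading frame (chr1:19963476-19963838, minus strand, the shorter annotated isoform) has 363 bases with 120 codons before the stop. Of MRD1 the first 150 bases are given (chr1:19963689-19963838).
AT3G63052: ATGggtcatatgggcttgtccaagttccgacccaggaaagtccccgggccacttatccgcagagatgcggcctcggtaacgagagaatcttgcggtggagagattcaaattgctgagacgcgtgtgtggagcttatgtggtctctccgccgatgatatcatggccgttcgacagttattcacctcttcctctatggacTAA
MRD1: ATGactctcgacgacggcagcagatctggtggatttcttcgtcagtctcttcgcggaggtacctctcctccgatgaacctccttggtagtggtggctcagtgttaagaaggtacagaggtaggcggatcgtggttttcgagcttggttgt
The nearest copies found by alignment to the genome were AT2G00670 for AT3G63052, with 87.5% identity over 208 aligned positions, and AT5G03090 for MRD1, with 89.0% identity over 362 positions. The count tables hold no coordinates, and positions are those of the annotation for the same locus tags.

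Across the transcriptome the genotypes were close in the dark. Of 17879 genes tested, 2 passed an adjusted p of 0.05 (0.0112%), 0 higher and 2 lower in flu/ex1/ydl1. At an unadjusted p under 0.05 the test gave 711 genes (3.98%), 331 higher (1.85%) and 380 lower (2.13%), and DESeq2 called the same 2 genes after adjustment. The unadjusted number depended on single libraries and on the tool: it was 1506 of 18693 tested without the ribosomal RNA-rich flu/ex1 dark replicate 2, 1039 of 18697 without flu/ex1/ydl1 dark replicate 3, and 348 with DESeq2. The median log2 fold change over all genes tested was 0.00, the 5th and 95th percentiles were -0.77 and 0.73, and 95.2% of genes lay within 1 log2 unit of 0. The same test found 700 genes (3.92%) at 30 min and 1763 genes (9.86%) at 60 min of light, of which 637 (3.56%) and 1525 (8.53%) were higher in flu/ex1/ydl1 and 63 (0.352%) and 238 (1.33%) lower. Distances were first read over the 500 genes most variable across all 12 libraries, a choice that favours genes changing in light. Over these, the root mean square distance (log2 CPM) between a dark flu/ex1/ydl1 and a dark flu/ex1 library was 0.927 to 1.23. The 2 dark flu/ex1/ydl1 libraries lay 0.914 apart and the 2 dark flu/ex1 libraries 1.22 apart, so the distances between genotypes were of the size of those within. At 60 min the distances between genotypes were 2.47 to 3.82, against 1.06 within flu/ex1/ydl1 and 1.26 within flu/ex1. Over all genes tested, without that choice, dark distances were 0.565 to 0.695 between genotypes, 0.614 within flu/ex1/ydl1 and 0.658 within flu/ex1. The same values at 60 min were 0.84 to 1.04 between genotypes, 0.7 within flu/ex1/ydl1 and 0.48 within flu/ex1.

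**Figure D2:**
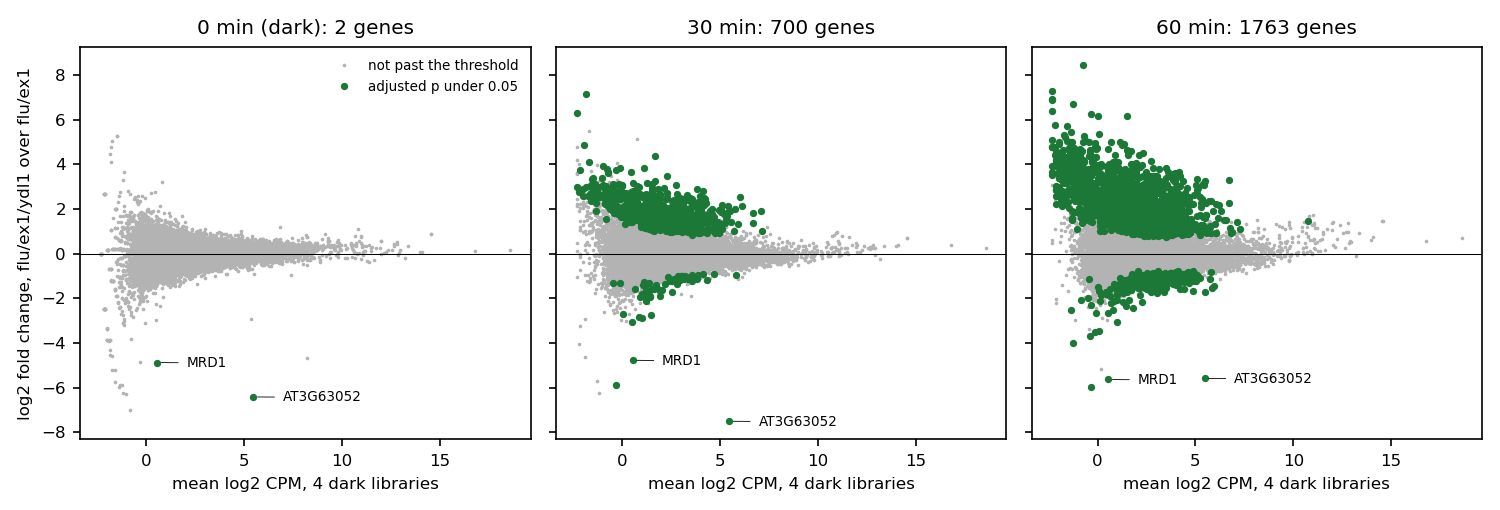
Log2 fold change of flu/ex1/ydl1 over flu/ex1 (y axis) against the mean log2 CPM over the 4 dark libraries (x axis) for each of 17879 genes, at 0, 30 and 60 min. Green points passed an adjusted p of 0.05 and numbered 2, 700 and 1763.

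AT3G63052 was lower in flu/ex1/ydl1 in the dark. It had 1.90 and 8.89 CPM in flu/ex1/ydl1, against 582 and 349 CPM in flu/ex1. Every flu/ex1 library was above every flu/ex1/ydl1 library, and the higher of the flu/ex1/ydl1 values was in replicate 3. The log2 fold change was -6.42 ± 0.71 (SE, n = 2 each), with an adjusted p of 0.00122. Here and below the SE was derived from the test statistic, with the spread estimated over all 12 libraries. In counts, the flu/ex1/ydl1 libraries held 14 and 68, against 4203 and 3545 in flu/ex1, and after scaling the pooled level was 1.22% of that in flu/ex1 (95% exact interval of counting error, 0.972% to 1.52%). In the light the log2 fold changes were -7.51 ± 0.76 at 30 min (adjusted p = 0.000107) and -5.59 ± 0.69 at 60 min (adjusted p = 2.93e-05). Over all libraries flu/ex1/ydl1 held 11 to 68 counts each, against 2612 to 4353 in flu/ex1. Its near copy AT2G00670, annotated as a non-coding RNA, held 36434 and 40102 counts in dark flu/ex1/ydl1 libraries and 33748 and 21512 in dark flu/ex1 libraries, and did not pass the test (log2 fold change 0.58 ± 0.56, adjusted p = 0.984). How reads shared by both loci were counted is not given in the sources used here. Without flu/ex1/ydl1 dark replicate 1 the adjusted p of AT3G63052 was 0.0565, and without the ribosomal RNA-rich flu/ex1 replicate 2 it was 0.00388. The log2 fold change was -8.13 with labelled times (adjusted p = 0.0299) and -8.25 with only the 2 libraries that are dark by both name and label (adjusted p = 0.00756).

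**Figure D3:**
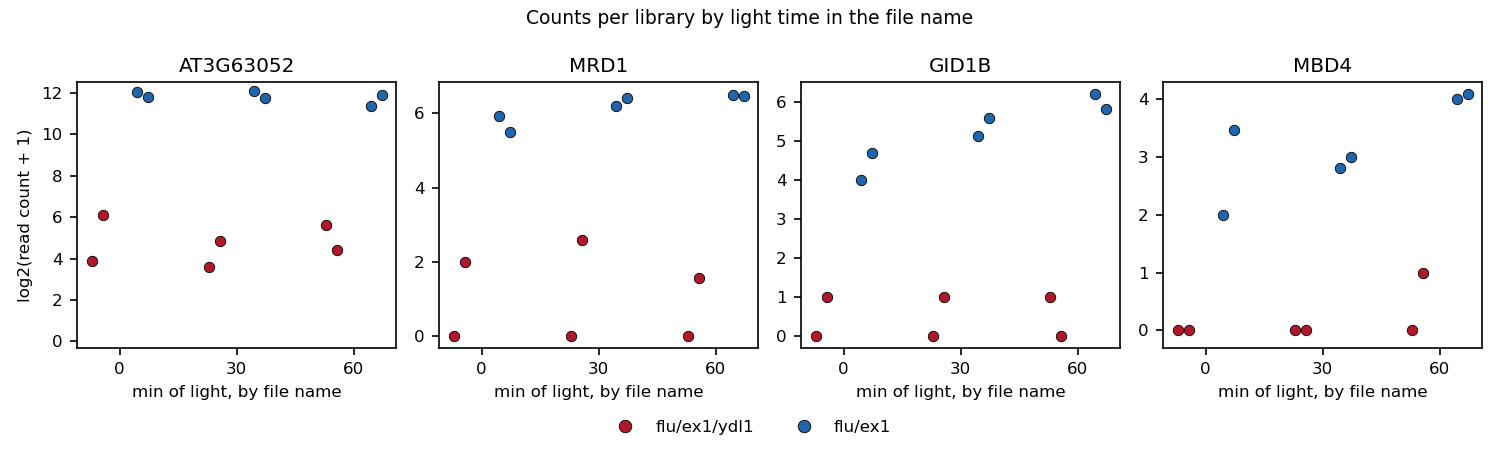
Read counts of AT3G63052, MRD1, GID1B and MBD4 in each of the 12 libraries (y axis, log2 of the count plus 1) by minutes of light in the table name (x axis), flu/ex1/ydl1 in red on the left and flu/ex1 in blue on the right of each time. The flu/ex1/ydl1 libraries lie below the flu/ex1 libraries of the same time in every panel.

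AT3G63052 lies on chromosome 3, and its neighbours were read to see how far the difference reached. GID1B, a receptor of the growth hormone gibberellin, had 0 and 1 counts in dark flu/ex1/ydl1 libraries, against 15 and 25 counts in dark flu/ex1 libraries. The log2 fold change was -4.86 ± 0.86 with an adjusted p of 0.13, which did not pass, though it did with no filter on low counts (6.88e-05), with only the 4 dark libraries (0.0477) and without flu/ex1/ydl1 replicate 2 at 60 min (0.0446). On leaving out single libraries it ranged from -7.55 to -4.01. It passed at 30 min (-5.90 ± 0.76, adjusted p = 0.000349) and at 60 min (-5.98 ± 0.76, adjusted p = 3.59e-05), and over all libraries flu/ex1/ydl1 held 3 counts against 248 in flu/ex1. MBD4, a methyl-CpG-binding domain protein, had 0 counts in both dark flu/ex1/ydl1 libraries, against 3 and 10 in flu/ex1, which is at least 3.75-fold lower against a floor of 3 counts over the group (adjusted p = 0.984). It held 1 count over all 6 flu/ex1/ydl1 libraries against 57 in flu/ex1, and passed the test at 60 min (adjusted p = 0.0173) but not at 30 min (adjusted p = 0.0513). EDL3, an F-box protein related to EID1, held 0 counts in all flu/ex1/ydl1 libraries, against 27 counts over all flu/ex1 libraries. In the dark it had 1 and 2 counts in flu/ex1, too few for a test. GID1B, MBD4, AT3G63052 and EDL3 lie within 12.6 kb (chr3:23289243-23301865). AT3G63020, AT3G63040 and AT3G63050, which lie between them, had at most 4 counts in any library. The loci beyond the run did not pass the test in the dark. TIR1, an auxin receptor, had 477 counts over the dark flu/ex1/ydl1 libraries, against 515 over the dark flu/ex1 libraries. NPL41 had 48 in flu/ex1/ydl1 against 52 in flu/ex1, and AT3G63070 had 52 in flu/ex1/ydl1 and 52 in flu/ex1, and the interval between these flanking genes is 16.8 kb. AT3G63070 was higher in flu/ex1/ydl1 at 30 min (1.34 ± 0.36, adjusted p = 0.0486).

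**Figure D4:**
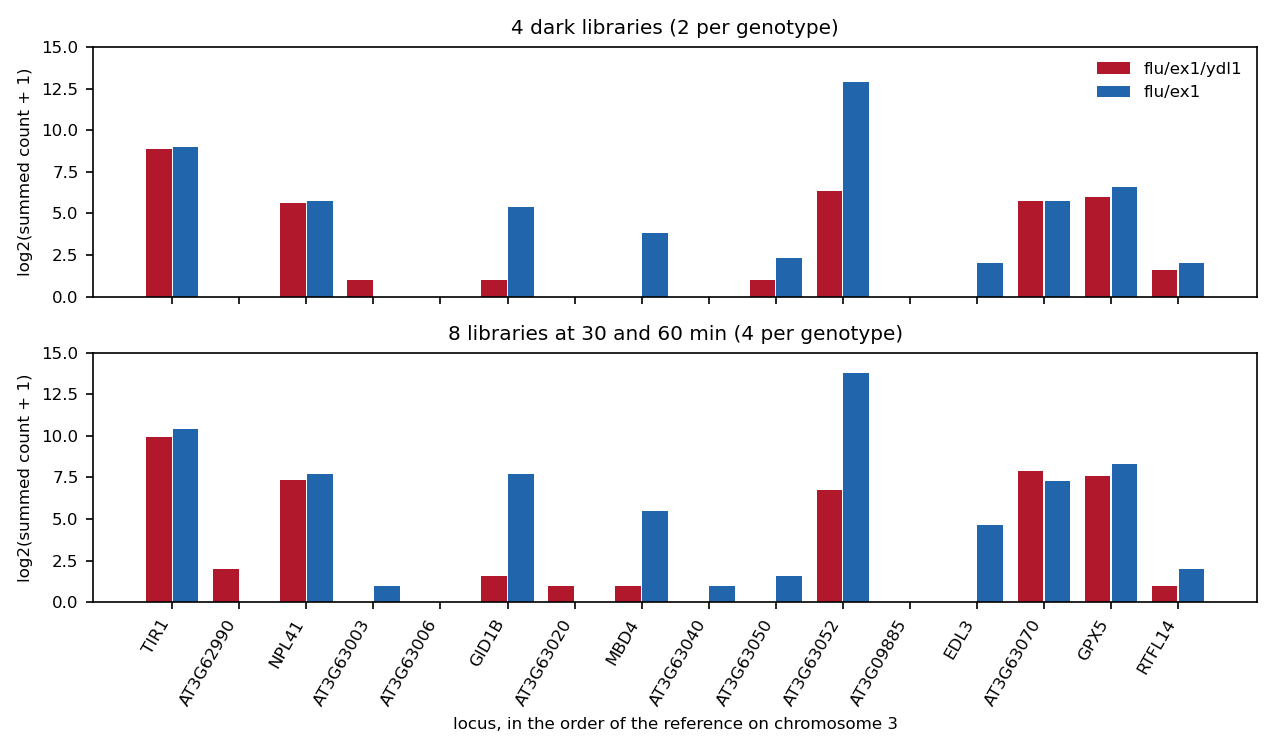
Counts summed per genotype (y axis, log2 of the sum plus 1) for the loci around AT3G63052 in the order of the reference (x axis), flu/ex1/ydl1 in red and flu/ex1 in blue. The upper panel sums the 4 dark libraries and the lower panel the 8 libraries with light. GID1B, MBD4, AT3G63052 and EDL3 are lower in flu/ex1/ydl1 in both panels, and TIR1 and NPL41 are at similar height in both genotypes.

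MRD1, named for falling in the methionine-overaccumulating mutant mto1, was the second gene lower in flu/ex1/ydl1 in the dark. It had 0 and 0.392 CPM in flu/ex1/ydl1, against 8.30 and 4.33 CPM in flu/ex1, from 0 and 3 counts in flu/ex1/ydl1 and 60 and 44 counts in flu/ex1. No flu/ex1/ydl1 library reached the flu/ex1 values. The log2 fold change was -4.88 ± 0.72 (SE, n = 2 each), adjusted p = 0.0339, and the pooled level was 3.34% of that in flu/ex1 (95% exact interval of counting error, 0.677% to 10%). In the light libraries flu/ex1/ydl1 held 7 counts, against 334 in flu/ex1. The call did not hold on leaving out any of 6 single libraries, with the direction kept. Among dark libraries the adjusted p was 1 without flu/ex1/ydl1 replicate 1, 0.176 without flu/ex1/ydl1 replicate 3 and 0.363 without flu/ex1 replicate 2. It was 0.0709 and 0.0789 without flu/ex1 replicates 2 and 3 at 30 min, and 0.0504 without flu/ex1 replicate 3 at 60 min. With only the 2 libraries that are dark by both name and label, 1 per genotype and assumed to vary like the other groups, the log2 fold change was -9.40 with an adjusted p of 0.0669. MRD1 overlaps AT1G07887 and HEI10 on the opposite strand, and its near copy AT5G03090 had 5 counts in flu/ex1/ydl1 against 18 in flu/ex1 over all libraries, so the strands and copies were not resolved by the counts. The tested genes around it did not pass in the dark. MUM4 had 107 counts in flu/ex1/ydl1 against 132 in flu/ex1, and MPK18 had 205 in flu/ex1/ydl1 against 223 in flu/ex1. Of the methionine genes fixed as a list, 0 of 14 tested passed in either direction in the dark, with a median log2 fold change of 0.09. Grouped by the labels instead of the table names, the test at 0 min also found 2 genes (0.0112%). These were the same 2, with MRD1 at -9.38 (adjusted p = 0.0299). That grouping takes in flu/ex1/ydl1 replicate 1 and flu/ex1 replicate 3 at 30 min by table name, so it is not a comparison of dark libraries only.

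Below the threshold, the 10 genes of smallest p that were higher in flu/ex1/ydl1 with a mean of at least 1 CPM were led by AT3G05955, a long non-coding RNA. It had 5.01 and 3.79 CPM in flu/ex1/ydl1, against 0.692 and 0.295 CPM in flu/ex1 (log2 fold change 3.20 ± 0.56, adjusted p = 0.13). It passed with no filter on low counts (0.000151), with only the 4 dark libraries (0.00673) and without flu/ex1/ydl1 replicate 2 at 60 min (0.0446). CYP79F1, which starts the synthesis of aliphatic glucosinolates, had 2.84 and 2.75 CPM in flu/ex1/ydl1, against 0.554 and 0.295 CPM in flu/ex1 (2.74 ± 0.58, adjusted p = 0.771, or 0.0204 with no filter on low counts). It has a close paralog, CYP79F2, with 8 and 2 counts in flu/ex1/ydl1 and 3 and 1 in flu/ex1. SMT2, a sterol methyltransferase, had 39.7 and 37.1 CPM in flu/ex1/ydl1, against 19.2 and 22.6 CPM in flu/ex1 (0.88 ± 0.24, adjusted p = 0.984). PCC1, a small protein known to answer to pathogens and the clock, had 6.64 and 5.10 CPM in flu/ex1/ydl1, against 2.35 and 1.38 CPM in flu/ex1. THI2.2, a thionin, had 6.64 and 5.76 CPM in flu/ex1/ydl1, against 2.91 and 1.77 CPM in flu/ex1. In each of these genes both flu/ex1/ydl1 values lay above both flu/ex1 values, which the choice by smallest p favours. The 10 lower genes included AT3G63052, MRD1 and GID1B, then AAP4, an amino acid permease, with 5.69 and 4.84 CPM in flu/ex1/ydl1 against 8.44 and 12.2 CPM in flu/ex1. Also among them was bHLH115, a regulator of iron uptake, with 3.93 and 5.62 CPM in flu/ex1/ydl1 against 8.30 and 10.6 CPM in flu/ex1.

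No gene of tetrapyrrole synthesis, the pathway that FLU controls, passed the test in the dark. Of 29, 28 were tested and 0 passed, 6 were above 0 and 22 below, and the median log2 fold change was -0.19, against 0.00 over all genes tested. Without flu/ex1 dark replicate 3 the median was -0.01. HEMA1, which encodes glutamyl-tRNA reductase, the step that FLU holds back, had 48.4 and 57.3 CPM in flu/ex1/ydl1, against 63.5 and 86.9 CPM in flu/ex1 (-0.51 ± 0.26, adjusted p = 0.984). PCB2, the divinyl reductase, had 11.8 and 12.8 CPM in flu/ex1/ydl1, against 16.6 and 29.5 CPM in flu/ex1 (-0.91 ± 0.38, adjusted p = 0.984). PORB, an enzyme that uses light to reduce protochlorophyllide, had 25.5 and 23.7 CPM in flu/ex1/ydl1, against 27.4 and 29.4 CPM in flu/ex1. GUN5, a subunit of magnesium chelatase, had 176 and 191 CPM in flu/ex1/ydl1, against 180 and 205 CPM in flu/ex1.

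Nuclear genes of light harvesting and the photosystems lay mostly above 0 in the dark without any passing the test. Of 38 tested, 34 were above 0 and 4 below, 0 passed, and the median was 0.38. Their summed CPM was 30977 and 33086 in flu/ex1/ydl1, against 23559 and 26465 in flu/ex1, and 25412 to 32766 in the 8 libraries with light. Leaving out flu/ex1/ydl1 dark replicate 3 brought the median to 0.12, and leaving out flu/ex1 dark replicate 2 to 0.19. PETE1, a plastocyanin, had 31.8 and 28.8 CPM in flu/ex1/ydl1, against 16.6 and 17.4 CPM in flu/ex1 (0.83 ± 0.26, adjusted p = 0.984). LHCB4.1, a minor antenna protein of photosystem II, had 704 and 572 CPM in flu/ex1/ydl1, against 331 and 473 CPM in flu/ex1. PETE1 and LHCB4.1 were named for their small p, and related genes of the list lay nearer 0. PETE2 had 789 and 1009 CPM in flu/ex1/ydl1, against 808 and 900 CPM in flu/ex1 (0.07 ± 0.27). LHCB4.2 and LHCB4.3 had log2 fold changes of 0.16 and 0.09. Loci encoded in the plastid, which took most of the counts, had a median of 0.07 over 103 tested of 133, and those of the mitochondrion 0.02 over 52 of 152, again with 0 passing.

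No gene of the response to singlet oxygen passed the test in the dark. Of 23 genes known from lit flu seedlings or from plants exposed to singlet oxygen, all 23 were tested and 0 passed, with 19 above 0 and a median of 0.33. Of all genes tested, 49.4% were above 0 in the dark. At 30 min 20 passed as higher in flu/ex1/ydl1, with a median of 2.53, and at 60 min 23 passed, with a median of 3.85. Of all genes tested, 3.56% and 8.53% passed as higher at these times. The list was chosen with earlier results of these data known, so its high share in light is no independent result. STZ, a zinc finger protein, had 11.9 and 9.29 CPM in dark flu/ex1/ydl1 libraries, against 9.13 and 4.73 CPM in dark flu/ex1 libraries. At 60 min it had 123 and 189 CPM in flu/ex1/ydl1, against 14.3 and 25.1 CPM in flu/ex1. BAP1, a C2-domain protein that limits cell death, had 3.39 and 3.66 CPM in the dark flu/ex1/ydl1 libraries, within the 6.23 and 0.591 CPM of the dark flu/ex1 libraries. The dark flu/ex1 libraries differed from each other, and the list summed to 177 and 137 CPM in flu/ex1/ydl1 and to 173 and 84.9 CPM in flu/ex1. Without flu/ex1 replicate 2 the median was 0.97, and without flu/ex1 replicate 3 it was 0.05.

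Stress and hormone genes did not pass either. In the jasmonate list 0 of 24 tested passed, with a median of 0.05. OPR3, an enzyme of jasmonate synthesis, had 6.64 and 4.06 CPM in flu/ex1/ydl1, against 2.63 and 3.05 CPM in flu/ex1 (0.90 ± 0.35, adjusted p = 0.984). In the salicylate and immune list 0 of 14 passed, with a median of 0.41, and PR1, a secreted antimicrobial protein, had 2.71 and 4.71 CPM in flu/ex1/ydl1, against 0.277 and 1.67 CPM in flu/ex1 (1.81 ± 0.58, adjusted p = 0.984). Its log2 fold change was 1.15 without flu/ex1 replicate 2 and 3.69 without flu/ex1 replicate 3. In the heat shock list 0 of 13 passed. Its summed CPM was 37.3 and 24.2 in flu/ex1/ydl1 and 51.5 and 15.7 in flu/ex1, the higher value again in flu/ex1 replicate 2, and its median of -0.26 was 0.83 without that library and -0.99 without flu/ex1 replicate 3. In the antioxidant list 0 of 23 passed, with a median of 0.03. GPX6, a glutathione peroxidase, had 8.13 and 10.3 CPM in flu/ex1/ydl1, against 14.0 and 16.3 CPM in flu/ex1. GSTF8, a glutathione transferase, had 68.3 and 50.0 CPM in flu/ex1/ydl1, against 42.2 and 33.3 CPM in flu/ex1. Of the gibberellin genes 0 of 18 passed, with 3 above 0, 15 below and a median of -0.16. GID1A, another gibberellin receptor, had 9.62 and 7.59 CPM in flu/ex1/ydl1, against 12.7 and 15.3 CPM in flu/ex1 (-0.71 ± 0.25, adjusted p = 0.984).

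Genes tied to darkness, light and time of day gave no call in the dark. The light-induced list had a median of 0.54 with 13 of 17 above 0 and 0 passing. TT5, which encodes chalcone isomerase of flavonoid synthesis, had 12.6 CPM in both flu/ex1/ydl1 libraries, against 6.09 and 7.39 CPM in flu/ex1 (0.89 ± 0.26, adjusted p = 0.984). ELIP1, in the same list, had a log2 fold change below 0 (-0.78 ± 0.28, adjusted p = 0.984), so the list held values of both signs. The dark and starvation list had a median of -0.15 over 23 tested, the clock list -0.19 over 19 and the regulators of dark and light signalling 0.25 over 12, each with 0 passing. CGA1, a GATA factor that promotes greening, had 2.84 and 3.01 CPM in dark flu/ex1/ydl1 libraries, against 4.29 and 6.70 CPM in dark flu/ex1 libraries (-0.92 ± 0.38, adjusted p = 0.984) and was lower at 30 min (-1.65, adjusted p = 0.00784) and 60 min (-1.53, adjusted p = 0.00741).

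**Figure D5:**
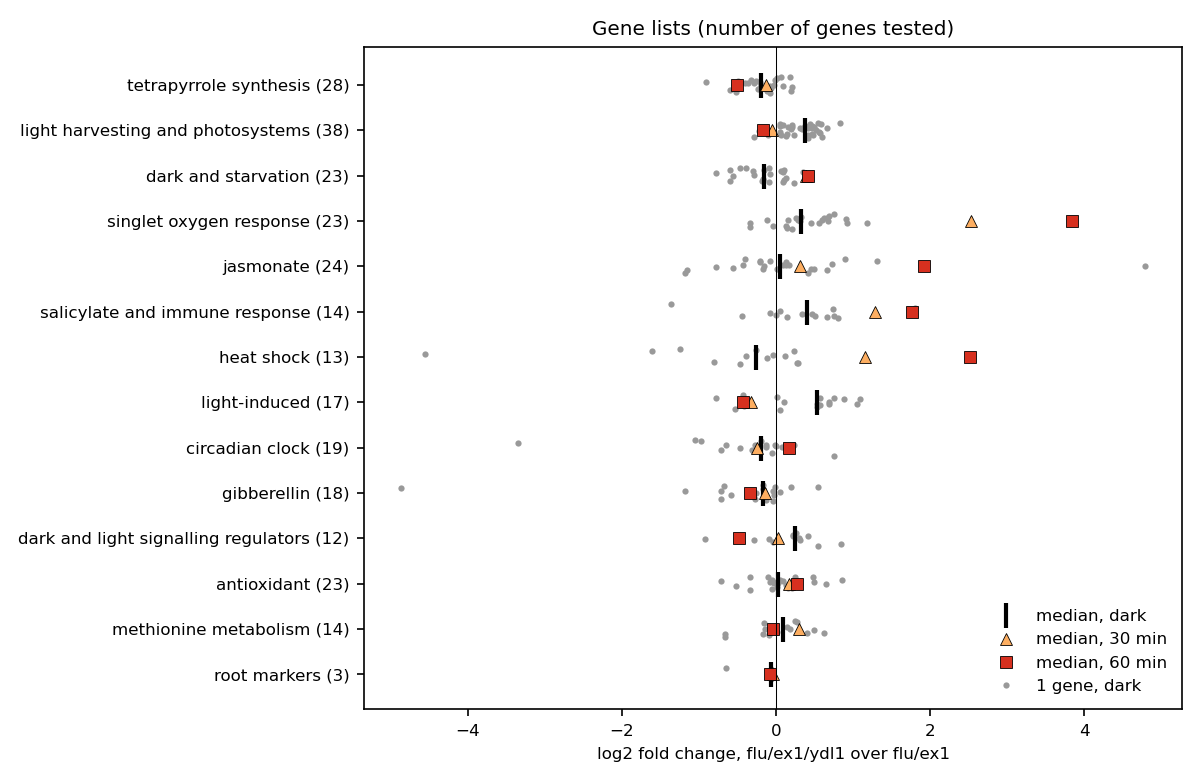
Log2 fold change of flu/ex1/ydl1 over flu/ex1 (x axis) for the genes of 14 lists (rows, with the number tested). Grey points are single genes in the dark, black bars the list medians in the dark, triangles the medians at 30 min and squares those at 60 min. The singlet oxygen list has medians of 0.33, 2.53 and 3.85.

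The difference between genotypes was itself compared between the dark and the light times. It differed from that at 30 min for 21 genes (0.117%) and from that at 60 min for 582 genes (3.26%). Of the 582, 557 (3.12%) had a lower log2 fold change in the dark than at 60 min and 25 (0.14%) a higher one. CNI1, a ubiquitin ligase of the singlet oxygen list, had a log2 fold change 4.17 lower in the dark than at 60 min. For AT3G63052, which passed at all 3 times, the dark difference minus that at 60 min was -0.83 ± 0.87 (adjusted p = 0.806), and for MRD1 it was 0.77 (adjusted p = 0.908), neither past the threshold.

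Among the dark libraries, a ribosomal RNA locus outside the lists was highest in the ribosomal RNA-rich library. AT3G41768, a nuclear ribosomal RNA locus, had 97.9 and 252 CPM in dark flu/ex1/ydl1 libraries, against 8882 and 31.6 CPM in dark flu/ex1 libraries (log2 fold change -4.67 ± 1.61, adjusted p = 0.984). The flu/ex1/ydl1 values lay between those of the 2 flu/ex1 libraries. It passed the test when no filter on low counts was used or when only the 4 dark libraries were fitted. Ribosomal RNA loci have many near-identical copies, and their counts are uncertain.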

How the data were processed

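Values are raw counts per locus. The submitters' processing notes name Trimmomatic, FastQC, TopHat2 2.1.1, featureCounts and the build TAIR10 for how the authors made these deposited counts; strand setting and treatment of multi-mapping reads are not given in the sources used here. The deposited counts held 36917 loci per table, and 36632 matched the RefSeq TAIR10.1 annotation; the others were organelle loci. Light times were read from the table names, not the labels.

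Here, genes were filtered with filterByExpr (minimum count 10, minimum total 15) and scaled by TMM, and the 6 groups of genotype and time (12 libraries) were fitted with edgeR 4.0.16 quasi-likelihood F tests (R 4.3.3), with p-values adjusted by Benjamini-Hochberg and a threshold of 0.05. Each SE is the absolute log2 fold change divided by the square root of F. Exact tests of 2 against 2 libraries cannot go below p = 0.333. The script was tested on simulated data. CPM were computed for all loci, and the scaled library total was taken over the genes that passed the filter, plastid loci included. Genes were named by a fixed rule: FLU, EX1, EX2, GID1B, MRD1, AT3G63052, called genes, the 10 smallest p each way, up to 4 per list, and neighbours of called genes. The members and the 15 lists were chosen with earlier results of these data known. PORB, GUN5 and BAP1 were picked after their values were seen, as were rRNA loci, AT2G00670, AT5G03090, CYP79F2, ELIP2, HY5 and SIGE. So were HYH, FLS1, PETE2, LHCB4.2, LHCB4.3 and the loci under other observations. Near copies were found with blastn 2.17.0. DESeq2 1.42.0 was an alternative.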

Additional observations from a re-analysis of the deposited data

Results flagged for a closer look

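The difference between genotypes in the dark differed from that at 30 min for 21 genes and from that at 60 min for 582 genes, by a test of the difference itself (edgeR quasi-likelihood, adjusted p under 0.05). Genes given in the text whose difference passed that test between the dark and 60 min are listed next, and each value is the log2 fold change in the dark minus that at 60 min. Of the singlet oxygen list, ERF5 had -3.05, ERF6 -4.07, BAP1 -4.24, STZ -2.36 and CNI1 -4.17. Of the heat shock list, BAG6 had -4.90, HSF4 -2.69 and AT5G48570 -3.70. SARD1, a regulator of salicylate synthesis, had -2.21, AAP4 -1.83 and the antisense RNA AT3G03745 -2.28. PP2-B13 had -6.19. GPX6 had -1.33 and GSTF8 -1.60. TT5 had 1.56 and was the single flagged gene with a higher value in the dark.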

How the results depend on the processing

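The 2 calls in the dark were the same genes with labelled times, DESeq2, DESeq2 size factors and nuclear loci only. The count was 1 without both discordant dark libraries (those labelled 30 min), 10 with no filter, 5 with only the 4 dark libraries, 1 with the replicate number as a block, and 0 to 4 on leaving out single libraries (0 without flu/ex1/ydl1 dark replicate 1, 4 without flu/ex1/ydl1 60 min replicate 2). AT3G63052 was -8.13 with labelled times and -8.25 without the discordant libraries. It ranged from -7.93 to -5.71 and MRD1 from -8.99 to -3.95 on leaving out single libraries; MRD1 was -9.38 with labelled times, -9.40 (adjusted p = 0.0669) without the discordant libraries and -4.45 (adjusted p = 0.442) with the block. With labelled times, counts at 30 min, 60 min and both differences between times were 0. The difference from 30 min gave 0 genes without the discordant libraries, 300 unfiltered, 41 with the block, 107 with DESeq2 and 0 to 46 on leaving out single libraries. The difference from 60 min gave 175, 885, 334 and, on leaving out single libraries, 230 to 710. The 30 min count ranged from 121 to 811 and the 60 min count from 942 to 1894. The numbers do not pair the samples (correlations of deviations 0.16, 0.09, 0.28 and -0.18), and the dark groups share only number 3.

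List medians with labelled times were 0.08 (dark and starvation), 1.53 (singlet oxygen), 0.23 (jasmonate), 0.71 (salicylate), 0.06 (light-induced), 0.07 (regulators) and 0.44 (methionine). Without the discordant libraries they were 0.05 (dark and starvation), -0.14 (jasmonate), -0.50 (clock), -0.32 (gibberellin), 0.16 (regulators), 0.33 (methionine) and -0.68 (root). The block gave 0.30 (light-induced) and -0.60 (root), and no filter -0.67 (root). On leaving out single libraries, medians ranged from 0.06 to 0.34 (regulators), -0.30 to -0.15 (gibberellin), -0.99 to 0.83 (heat shock), 0.13 to 0.73 (light-induced), -0.23 to 0.06 (dark and starvation), -0.66 to -0.06 (root), -0.27 to -0.01 (tetrapyrrole), -0.07 to 0.18 (jasmonate), -0.03 to 0.12 (antioxidant) and -0.05 to 0.19 (methionine).

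Uncalled genes that changed sign with labelled times were FLU (-0.30), AAP4 (0.23), BAG6 (0.53), AT5G48570 (0.82), RUP1 (-0.12), RVE8 (0.31), PIF7 (-0.67), MS3 (0.39) and NRT2:1 (1.07). Without the discordant libraries FLU was -0.26, MS3 0.25 and NRT2:1 0.55, and with the block EX2 was 0.03, HSF4 0.02 and SHR 0.19. On leaving out single libraries FLU ranged from -0.14 to 0.28, EX2 from -0.31 to 0.15, BAG6 from -5.86 to 0.20, HSF4 from -1.13 to 0.79, AT5G48570 from -1.13 to 0.56, MS3 from -1.11 to 0.14, SHR from -0.66 to 0.35 and NRT2:1 from -0.34 to 0.31. The cause was not tested. Depth limits low genes such as MBD4 and EDL3.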

Other observations

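Over all 12 libraries, 7 of 36917 loci had at least 15-fold fewer counts in flu/ex1/ydl1 and more than 20 in flu/ex1. The opposite pattern was found at 17 loci, and this limit was chosen after the data were seen. The 7 were GID1B, MBD4, AT3G63052, EDL3, MRD1, AT3G06955 and AT3G58820. All except MRD1 carry locus tags of chromosome 3, and the share of all loci with such tags was not counted. GID1B, MBD4, AT3G63052 and EDL3 are the run within 12.6 kb described above. AT3G06955 had 2 counts in flu/ex1/ydl1 against 48 in flu/ex1 over all libraries, and 1 against 13 in the dark. AT3G58820 had 2 in flu/ex1/ydl1 against 55 in flu/ex1 over all libraries, and 1 against 11 in the dark. Of the 17, ERF6, an ethylene response factor, had 3439 counts in flu/ex1/ydl1 against 224 in flu/ex1, but in the dark libraries 42 in flu/ex1/ydl1 against 25 in flu/ex1. CML37, a calmodulin-like protein, had 1182 in flu/ex1/ydl1 against 55 in flu/ex1 over all libraries, and 2 in flu/ex1/ydl1 against 3 in flu/ex1 in the dark. PP2-B13 had 1501 in flu/ex1/ydl1 against 92 in flu/ex1 over all libraries, and 12 in flu/ex1/ydl1 against 14 in flu/ex1 in the dark.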
